A study of Saccharomyces cerevisiae with 8 samples.

Results

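The set described here holds 52 genes of budding yeast for ribosome assembly factors, nucleolar proteins and subunits of RNA polymerase I. The members were taken by systematic gene name from the table of counts, without intron entries. The rule itself used no measured value, but the members were chosen with earlier results of these data known. All 52 were found, each as 1 feature, among 7660 features used, and all 52 passed the filter on low counts. No member was at 0 counts in any library. By role, 7 encode subunits of RNA polymerase I, 7 proteins of small nucleolar ribonucleoprotein particles (snoRNPs), 3 factors shared by early steps of both subunits, 10 factors of the small subunit (40S) and 25 factors of the large subunit (60S).

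RNA polymerase I copies the ribosomal DNA into one long precursor RNA in the nucleolus. The snoRNPs modify that RNA, and assembly factors fold and cleave it while ribosomal proteins join it, until the 40S and 60S subunits leave the nucleus. In yeast the genes of these factors are known to be transcribed together according to nutrient supply, with TOR kinase signalling upstream of them.

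Cells of the anchor-away strain Y3284 (genotype given as MAT, tor1-1, a deletion of FPR1, RPL13A-2xFKBP12 and NAB2-FRB) were sampled untreated and after 15 and 30 min in 1 µg/ml rapamycin. Rapamycin bridges the FRB and FKBP12 tags, which ties Nab2, the nuclear poly(A)-binding protein, to a ribosomal protein that moves out of the nucleus. The control strain Y2615 (MATa, with the same tor1-1, FPR1 deletion and RPL13A-2xFKBP12, and no FRB tag) was sampled after 30 min in the same dose. The tor1-1 allele and the FPR1 deletion, which make cells resistant to rapamycin, are thus shared by all 4 groups, each with 2 libraries from biological replicates per the labels. The untreated anchor-away strain is called 0 min below.

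Totals ranged from 4832948 to 17023022 counts per library. Levels are given as CPM, the counts of a feature relative to the TMM-scaled total of its library. In 3 libraries, 1 in each rapamycin-treated group, over 20% of features had 0 counts (15 min replicate 1, 30 min replicate 2 and control replicate 1). The strains also differed in mating type genes. The 5 a-specific genes summed to 262 to 303 CPM in the control and to 7.89 to 33.3 CPM in the anchor-away libraries. The 4 alpha-specific genes summed to 49.2 to 52.2 CPM in the control and to 983 to 2413 CPM in the anchor-away libraries. In the comparison with the control, anchoring therefore cannot be told apart from the strain and its mating type, and in the comparisons with 0 min it cannot be told apart from time and rapamycin.

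Promoters of this gene group are known for the PAC element, bound in yeast by Dot6 and Tod6, and the RRPE element, bound by Stb3. The 8 members that passed edgeR's test below are shown first, as 80-base windows on the gene's strand from the R64 genome of RefSeq, so that the shared arrangement can be seen. ERB1, whose libraries overlapped in all 5 comparisons, is shown for contrast and was picked after its values were seen. Capitals mark the PAC core (GATGAG, or CTCATC when it lies on the other strand) and the RRPE core (AAAATTT, or AAATTTT on the other strand). Both strands of RRPE often match at once, which gives AAAATTTT. The windows, in the order printed, are chrXVI:581275-581354 (minus strand), chrIV:427114-427193 (plus), chrXII:505960-506039 (plus), chrVIII:283386-283465 (minus), chrIV:87363-87442 (plus), chrVII:807793-807872 (minus), chrXVI:153329-153408 (plus), chrXIII:534786-534865 (minus) and chrXIII:370580-370659 (minus).
RPA135: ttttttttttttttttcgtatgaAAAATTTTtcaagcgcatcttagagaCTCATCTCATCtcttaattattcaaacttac
NOP1: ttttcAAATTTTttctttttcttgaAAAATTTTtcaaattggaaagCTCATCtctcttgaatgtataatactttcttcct
CBF5: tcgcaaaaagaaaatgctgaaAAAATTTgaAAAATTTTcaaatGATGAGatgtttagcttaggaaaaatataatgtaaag
GAR1: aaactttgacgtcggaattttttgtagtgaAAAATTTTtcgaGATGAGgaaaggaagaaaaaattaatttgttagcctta
NHP2: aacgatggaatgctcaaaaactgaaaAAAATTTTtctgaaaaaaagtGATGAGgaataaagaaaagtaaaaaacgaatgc
NSR1: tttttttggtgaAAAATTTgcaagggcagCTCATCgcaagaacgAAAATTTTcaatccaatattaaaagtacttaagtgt
NIP7: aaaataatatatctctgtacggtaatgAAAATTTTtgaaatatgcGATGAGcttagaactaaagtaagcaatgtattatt
RRB1: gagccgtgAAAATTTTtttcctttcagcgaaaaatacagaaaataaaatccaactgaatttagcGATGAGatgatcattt
ERB1: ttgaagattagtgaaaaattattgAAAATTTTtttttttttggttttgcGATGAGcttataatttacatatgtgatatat

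In the 250 bases before the start codon, 50 of 52 members held a PAC core and 50 held an RRPE core. Among 6001 promoters of all genes, 17.0% held PAC, 21.7% held RRPE and 6.63% held both, against 49 of 52 members with both. In 40 of those 49 the PAC core lay downstream of its nearest RRPE core. The median first base was at -138 for RRPE and at -121 for PAC, counted from the start codon. The median distance between them was 16 bases. UTP4 held RRPE without PAC, MAK5 held PAC without RRPE, and RPA12 held neither, which says only that these letters are not in the window. The 8 members past a test and ERB1 all held both. Since 49 of 52 members did, this cannot show whether the cores go with a fall.

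**Figure D1:**
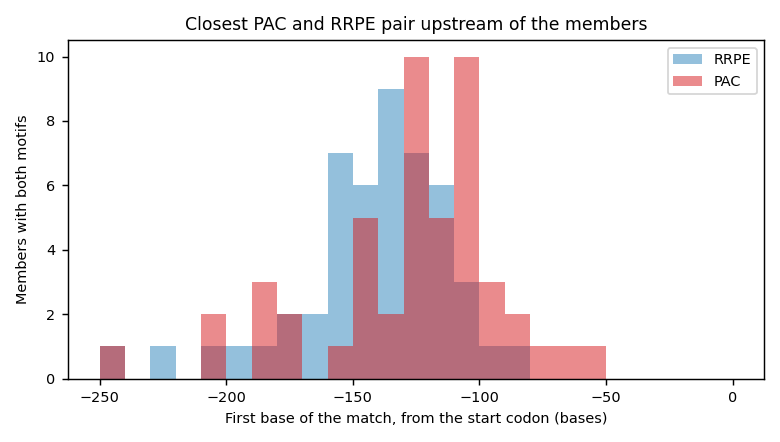
Position of the closest pair of PAC (red) and RRPE (blue) cores in the 49 members with both, as the number of members (y axis) per 10-base bin of distance from the start codon in bases (x axis). The medians lie at -121 for PAC and -138 for RRPE.

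Levels differed widely between members. Per kb of coding length and over all 8 libraries, NHP2 had the highest level (508 CPM per kb), followed by TIF6 (337), NOP1 (319) and NSR1 (249.5). UTP20 had the lowest (8.02 CPM per kb), then SPB4 (10.5) and MAK5 (11.4). NHP2 and NOP1 are snoRNP proteins, NSR1 is a nucleolin-like protein and TIF6 keeps the 60S subunit from joining the 40S too early. All 10 40S factors lay below the median member of this order, led by ENP1 (58.3 CPM per kb). RPA14, NOP58 and NOG2 were left out of it, since their features also cover a neighbouring gene or an intronic snoRNA.

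The first question is how the whole set moved. The summed level of the 52 members was 6921 and 8535 CPM untreated and 7735 and 6845 CPM after 15 min. After 30 min it was 4995 and 4732 CPM, and for the control strain 8319 and 6376 CPM. With this TMM scaling both 30 min libraries lay below all 6 others, and the other groups overlapped one another. As a plain percent of all counts the members held 0.633 and 0.506 at 30 min and 0.643 and 0.963 at 0 min. The same percent was 0.710 and 0.622 at 15 min and 0.819 and 0.545 for the control strain. Unscaled, the 30 min libraries thus overlapped the 15 min and control libraries. The mean was 0.63 times the 0 min mean and 0.66 times the control mean at 30 min, and 0.94 times the 0 min mean at 15 min. Without the 8 members that passed edgeR's test at 30 min, the remaining 44 summed to 0.70 times the 0 min mean and 0.76 times the control mean. By role the 30 min mean against 0 min was 0.56 for snoRNP proteins, 0.62 for early factors, 0.63 for RNA polymerase I, 0.65 for 60S factors and 0.74 for 40S factors. Against the control the same ratios were 0.51, 0.60, 0.66, 0.73 and 1.02. The 40S libraries overlapped, with 355 and 649 CPM untreated, 449 and 289 CPM after 30 min, and 442 and 284 CPM for the control strain. The CPM values are relative to the bulk of RNA of a whole culture, where fewer cells making a transcript and less of it per cell cannot be told apart.

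**Figure D2:**
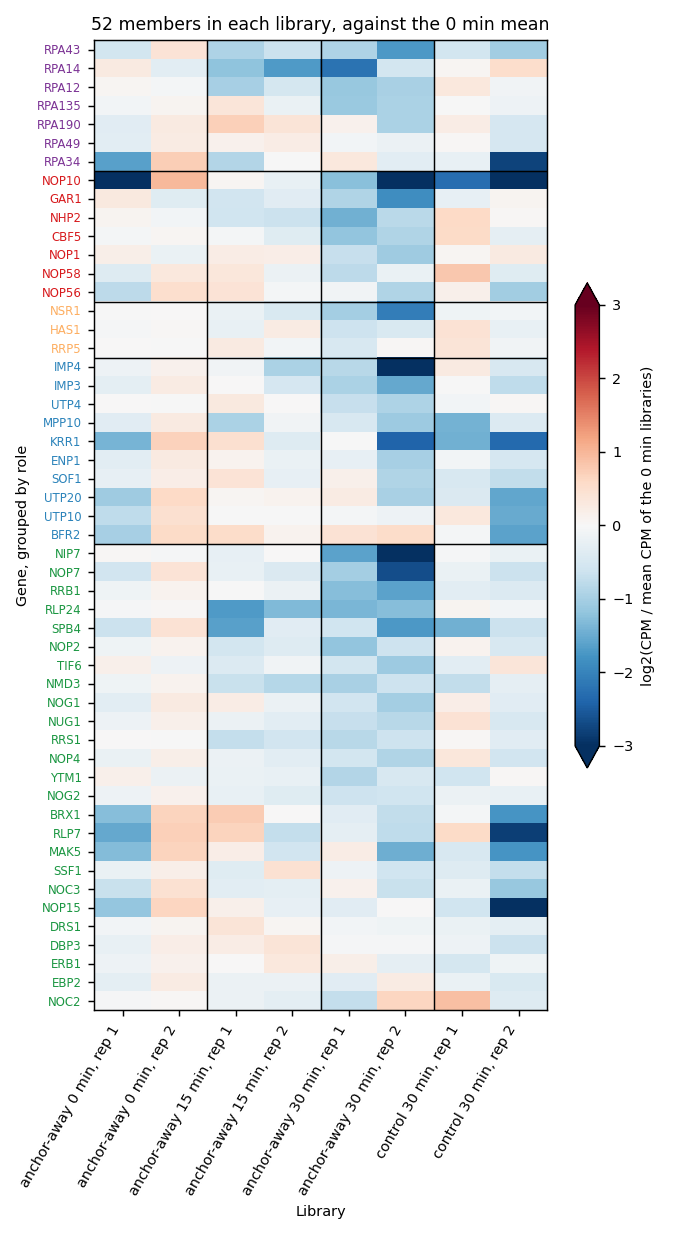
Level of each member (rows, name colour and lines by role) in each of the 8 libraries (columns), as log2 of CPM over the mean CPM of the 0 min libraries. Blue is below and red above that mean. Most rows are blue in both 30 min columns. NOP10, RLP7, NOP15 and RPA34 differ strongly within the 0 min and control pairs.

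At 15 min no member passed edgeR's test, and RLP24 and RPA14 had the lowest p. None of the 52 members passed edgeR's quasi-likelihood test at an adjusted p under 0.05, where 0.0162% of 6191 features fell and 0.145% rose. At an unadjusted p under 0.05 there were 4, all lower, beside 423 of all 6191 features, 258 of them lower. The count of members was thus near the share over all features. DESeq2 called RLP24 and limma-voom called RPA14. The median log2 fold change of the members was -0.13, against -0.06 for all features. Of the members, 13 had both 15 min libraries below both 0 min libraries (26.3% of all features did) and 4 had both above (19.1%). The median turned to 0.10 without 0 min replicate 2, when 2 members passed, and 1 passed without 30 min replicate 2.

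The lowest p at 15 min belonged to RLP24, a 60S factor that resembles a ribosomal protein and holds its place on the early particle. Its libraries read 76.4 and 81.2 CPM untreated, 24.2 and 31.7 after 15 min, 30.4 and 32.7 after 30 min, and 83.1 and 74.8 for the control strain. The 4 anchor-away libraries after rapamycin lay below the 4 others by a wide margin, and 15 and 30 min overlapped. The log2 fold change was -1.49 ± 0.39 (SE) at 15 min (edgeR adjusted p = 0.187) and -1.32 ± 0.39 at 30 min against 0 min (edgeR adjusted p = 0.0839). The comparison with the control gave -1.32 ± 0.39 (edgeR adjusted p = 0.0523). None of these passed by edgeR. Over 23 alternatives the 3 values ran from -2.36 to -1.29, from -2.02 to -0.80 and from -1.77 to -0.76. DESeq2 called RLP24 in all 3 comparisons (adjusted p = 0.0222, 0.0147 and 0.0126) and limma-voom in the 2 at 30 min (adjusted p = 0.0460 and 0.0487).

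RPA14, a subunit of the stalk of RNA polymerase I, stood next. It shares its feature with the overlapping reading frame YDR157W. It had 171 and 114 CPM untreated, 62.3 and 44.1 after 15 min, 30.8 and 97.5 after 30 min, and 148 and 207 for the control strain. Here too the 4 anchored libraries lay below the other 4. The log2 fold change was -1.42 ± 0.45 at 15 min (edgeR adjusted p = 0.385) and -1.48 ± 0.45 at 30 min against the control (edgeR adjusted p = 0.0658). Over 23 alternatives these values ran from -2.21 to -1.08 and from -2.76 to -0.87. DESeq2 called RPA14 against the control, and limma-voom called it in these 2 comparisons and at 30 min against 0 min. RPA12, the subunit that helps the polymerase cleave its own transcript, was ordered in the same way. It had 79.0 and 72.8 CPM untreated, 37.9 and 52.3 after 15 min, 34.3 and 38.5 after 30 min, and 93.8 and 70.4 for the control strain. Its log2 fold change was -0.75 ± 0.38 at 15 min (edgeR adjusted p = 0.769) and -1.17 ± 0.38 at 30 min against the control (edgeR adjusted p = 0.0801), where DESeq2 called it (adjusted p = 0.0328). Over the alternatives these values ran from -1.61 to -0.52 and from -1.64 to -0.43.

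At 30 min most members stood lower than at 0 min. By edgeR 5 of 52 members fell and none rose, against 2.26% of all 6191 features that fell and 0.501% that rose. The 5 were RRB1, NSR1, RPA135, NIP7 and NHP2. At an unadjusted p under 0.05 there were 23 members, all of them lower, beside 912 of all 6191 features, 661 of them lower. DESeq2 called 11 and limma-voom 10, all lower. The median log2 fold change was -0.72 (quartiles -1.06 and -0.27), against -0.05 for all features and -0.12 for transcripts of open reading frames. The median SE was 0.38 for the members, 0.61 for all features and 0.53 for open reading frames. The shares called were thus not taken at equal precision. Of the members, 49 had a negative fold change, against 52.4% of all features. In 27 both 30 min libraries lay below both 0 min libraries, which 27.7% of all features did, and in none did both lie above. The count was 3 without 0 min replicate 1, 30 min replicate 2 or control replicate 2, and 2 without either 15 min library. The median was -0.45 without 0 min replicate 2. When libraries were scaled to mitochondrial features none passed, and when scaled to snoRNAs 25 did. Both scalings also lowered the median of all features.

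Against the control at 30 min the called genes were the same 5 plus 3 snoRNP proteins. By edgeR 8 of 52 members fell and none rose, against 4.76% of all features that fell and 1.31% that rose. The 3 further genes were CBF5, NOP1 and GAR1. At an unadjusted p under 0.05 there were 18 members, all lower, beside 1288 of all 6191 features, 817 of them lower. DESeq2 called 11 members and limma-voom 9, all lower. The median log2 fold change was -0.38 (quartiles -0.88 and 0.19), against 0.06 for all features. Of the members, 34 had a negative fold change, against 47.8% of all features. In 22 members both 30 min libraries lay below both control libraries (24.2% of all features) and in 4 both lay above (22.9%). These 2 comparisons share the 30 min libraries, so low values in those libraries enter both. The count was 3 without either 15 min library, without 30 min replicate 2 or without control replicate 1, 4 without control replicate 2, and 2 without the 3 libraries rich in zeros.

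**Figure D3:**
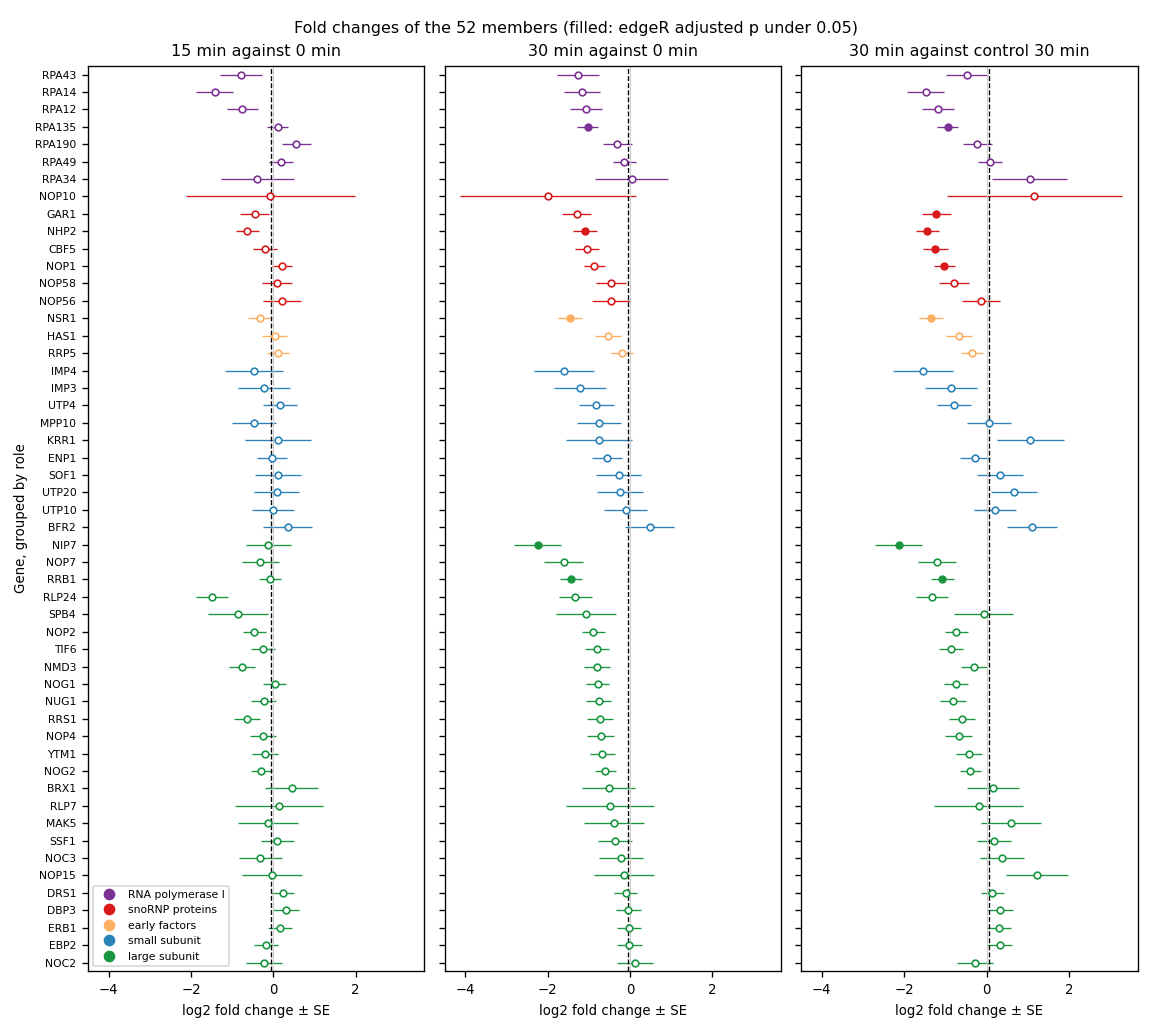
Log2 fold change with its standard error (x axis) of each member (y axis, colour by role) in 3 comparisons. Filled points passed edgeR's test, and the dashed line is the median of all features tested. Of 52 points, 32 lie below 0 at 15 min, 49 at 30 min against 0 min and 34 at 30 min against the control.

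Among the 7 genes of RNA polymerase I, RPA135 (YPR010C, chrXVI:577585-581196) passed. It encodes the second-largest subunit, which forms the active centre together with RPA190. RPA135 had 524 and 582 CPM untreated, 709.5 and 478 after 15 min, 257 and 289 after 30 min, and 550.4 and 494 for the control strain. Both 30 min libraries lay far below all 6 others. RPA135 fell by 1.02 ± 0.26 on the log2 scale against 0 min (edgeR adjusted p = 0.0382) and by 0.94 ± 0.26 against the control (edgeR adjusted p = 0.0355). In 14 of 23 alternatives RPA135 no longer passed against 0 min, and in 13 against the control.

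RPA190, the largest subunit, did not pass. Its values were 295 and 456 CPM untreated, 615 and 495 after 15 min, 410.3 and 195 after 30 min, and 441 and 267 for the control strain. The 30 min libraries overlapped both the 0 min and the control libraries. Its log2 fold change was -0.31 ± 0.35 against 0 min (edgeR adjusted p = 0.834). RPA43, the other stalk subunit, had -1.27 ± 0.52 (edgeR adjusted p = 0.233). RPA49 and RPA34 form a dimer that acts in initiation and elongation. RPA49 had -0.13 ± 0.29 and RPA34 0.04 ± 0.89 (edgeR adjusted p = 0.937 and 0.995). RPA34 ranged from 6.51 to 33.7 CPM within the 0 min pair alone.

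The snoRNP proteins held the most calls, 4 of 7 against the control. The H/ACA particles guide pseudouridine formation, and their core has 4 proteins, of which 3 fell against the control. NHP2 (YDL208W, chrIV:87512-87982) had 299 and 267 CPM untreated, 186 and 179 after 15 min, 104 and 162 after 30 min, and 429 and 288 for the control strain. Its levels stepped down from 0 to 15 to 30 min with no overlap between the groups. NHP2 fell by 1.09 ± 0.29 log2 units against 0 min (edgeR adjusted p = 0.0480) and by 1.44 ± 0.29 against the control (edgeR adjusted p = 0.00587). At 15 min its log2 fold change of -0.63 ± 0.28 did not pass (edgeR adjusted p = 0.663). The call against 0 min did not hold in 13 of 23 alternatives, and a length correction moved the value to -0.52, while the call against the control held in 20.

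CBF5 (YLR175W, chrXII:506134-507585), the pseudouridine synthase itself, had 227 and 247 CPM untreated, 228 and 184 after 15 min, 104 and 128 after 30 min, and 350.3 and 197 for the control strain. Only the 30 min libraries stood apart. CBF5 fell by 1.24 ± 0.30 log2 units against the control (edgeR adjusted p = 0.0173), while -1.04 ± 0.30 against 0 min did not pass (edgeR adjusted p = 0.0733). GAR1 (YHR089C, chrVIII:282681-283298), the protein that helps substrate RNA turn over on the enzyme, had 175 and 112 CPM untreated, 96.7 and 113 after 15 min, 76.9 and 39.6 after 30 min, and 121 and 151 for the control strain. GAR1 fell by 1.22 ± 0.35 log2 units against the control (edgeR adjusted p = 0.0489), which did not hold in 15 of 23 alternatives. Relative to 0 min its value was -1.29 ± 0.35 (edgeR adjusted p = 0.0592). NOP10, the remaining core protein and the shortest coding region of the set, varied too much within groups for a comparison, with 1.83 and 136 CPM in the 0 min pair and 14.2 and 1.23 in the control pair.

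The C/D particles guide methylation. NOP1 (YDL014W, chrIV:427364-428347), the methyltransferase known as fibrillarin, had 368 and 288 CPM untreated, 380.1 and 378 after 15 min, 205 and 156 after 30 min, and 339 and 395 for the control strain. Both 30 min libraries were below all others, and both 15 min libraries were above both at 0 min. NOP1 fell by 1.02 ± 0.25 log2 units against the control (edgeR adjusted p = 0.0216), with -0.86 ± 0.25 against 0 min (edgeR adjusted p = 0.0826). In 11 of 23 alternatives NOP1 no longer passed against the control, and a GC correction moved its value to -0.18. Its partners NOP56 and NOP58 had -0.45 ± 0.46 and -0.46 ± 0.37 against 0 min and did not pass (edgeR adjusted p = 0.803 and 0.701). NOP58 shares its feature with the overlapping frame YOR309C.

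**Figure D4:**
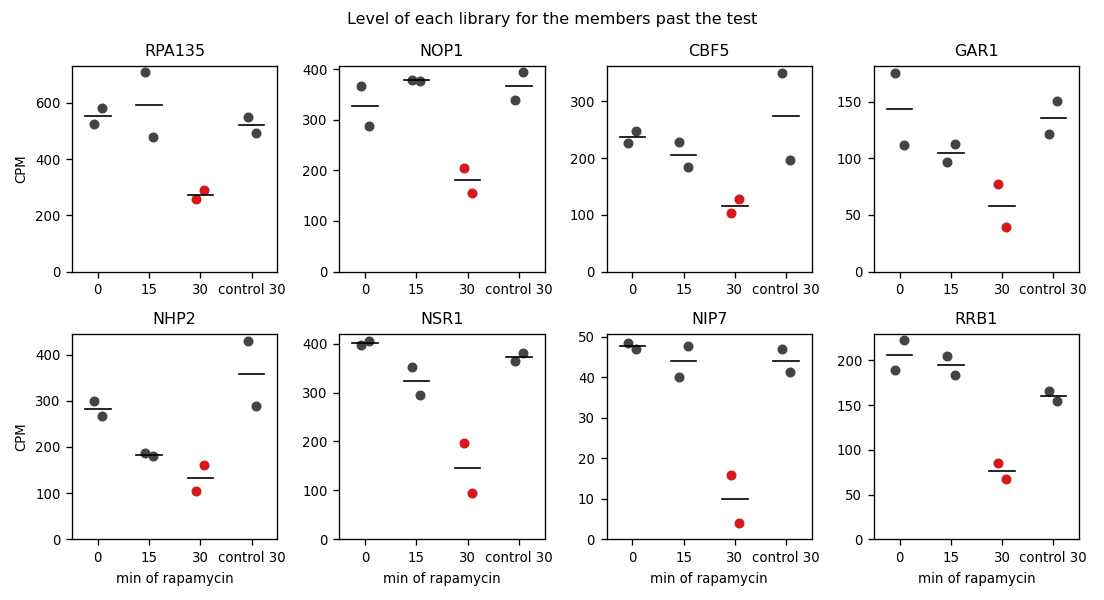
CPM (y axis, from 0) of the 8 members past a test in each library, by min of rapamycin (x axis). Points are the 2 libraries of a group, lines their mean, and red marks 30 min in the anchor-away strain. In each panel both red points lie below the 6 others.

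Of the early factors NSR1 (YGR159C, chrVII:806412-807656) passed. It resembles the vertebrate nucleolin and is needed for normal processing of the precursor RNA. NSR1 had 397 and 405 CPM untreated, 352 and 294 after 15 min, 197 and 95.0 after 30 min, and 364 and 381 for the control strain. The 15 min pair lay between the 0 and 30 min pairs. NSR1 fell by 1.45 ± 0.30 log2 units against 0 min (edgeR adjusted p = 0.0127) and by 1.35 ± 0.30 against the control (edgeR adjusted p = 0.0111). These calls did not hold in 7 and 8 of 23 alternatives. The scaffold protein gene RRP5 and the helicase gene HAS1 had -0.20 ± 0.27 and -0.53 ± 0.31 against 0 min and did not pass (edgeR adjusted p = 0.869 and 0.492).

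None of the 10 genes of 40S assembly passed in any comparison by edgeR, and DESeq2 and limma-voom called none of them either. At an unadjusted p under 0.05 there was 1 against 0 min and 1 against the control at 30 min, both times IMP4, a protein of the complex that pairs the U3 snoRNA with the precursor. IMP4 had 29.1 and 35.5 CPM untreated, 30.0 and 16.7 after 15 min, 18.2 and 2.90 after 30 min, and 38.8 and 23.3 for the control strain. The 30 min libraries were the lowest in both comparisons but differed 6.26-fold from each other. The log2 fold change was -1.59 ± 0.73 against 0 min (edgeR adjusted p = 0.312). Its partner IMP3 had -1.21 ± 0.64. MPP10, which joins both, had the lowest p of the 10 at 15 min. Its libraries held 38.6 and 58.4 CPM untreated, 25.3 and 45.1 after 15 min, 34.6 and 22.6 after 30 min, and 18.2 and 36.7 for the control strain. The 30 min and control libraries lay below those at 0 min, the 15 min libraries overlapped all others, and the log2 fold change was -0.46 ± 0.53 at 15 min and -0.76 ± 0.53 at 30 min (edgeR adjusted p = 1 and 0.620). ENP1, the most abundant of the 10 per kb, had 78.3 and 116 CPM untreated, 105 and 85.1 after 15 min, 82.3 and 49.1 after 30 min, and 91.6 and 69.0 for the control strain. The groups overlapped at 0 and 30 min, and its log2 fold change was -0.56 ± 0.36 (edgeR adjusted p = 0.556). The median of the 10 was -0.66 against 0 min and 0.14 against the control. BFR2 was the one 40S factor with a positive value against 0 min, at 0.48 ± 0.60.

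Of the 25 genes of 60S assembly 2 passed against 0 min and against the control. RRB1 (YMR131C, chrXIII:533163-534698) encodes the chaperone that escorts ribosomal protein Rpl3 to the nucleolus. It had 189 and 222 CPM untreated, 205 and 184 after 15 min, 84.8 and 67.5 after 30 min, and 165 and 155 for the control strain. The 0 and 15 min pairs overlapped, and both 30 min libraries were well below all others. RRB1 fell by 1.43 ± 0.27 log2 units against 0 min (edgeR adjusted p = 0.00878) and by 1.07 ± 0.27 against the control (edgeR adjusted p = 0.0233). Its call held in 22 of 23 alternatives against 0 min and in 13 against the control.

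NIP7 (YPL211W, chrXVI:153495-154040), a small factor of early 60S particles, had the lowest fold change of the set in both comparisons at 30 min. It had 48.5 and 46.9 CPM untreated, 40.2 and 47.7 after 15 min, 15.8 and 4.06 after 30 min, and 46.9 and 41.3 for the control strain. NIP7 was level in 6 libraries and low in both at 30 min, where it rested on 184 and 21 counts. NIP7 fell by 2.24 ± 0.57 log2 units against 0 min (edgeR adjusted p = 0.0424) and by 2.13 ± 0.57 against the control (edgeR adjusted p = 0.0325). These calls were lost in 15 and 13 of 23 alternatives.

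Other 60S factors had negative values without passing by edgeR, and DESeq2 and limma-voom called NOP7, NOP2 and RLP24 against 0 min in addition. NOP7, which works with ERB1 and YTM1 in one complex, had -1.61 ± 0.46 against 0 min (edgeR adjusted p = 0.0916). ERB1 had 129 and 157 CPM untreated and 163 and 119 after 30 min, with a log2 fold change of -0.03 ± 0.29, and the difference between the 2 genes was not tested. TIF6 had 317 and 258 CPM untreated, 215 and 268 after 15 min, 195 and 136 after 30 min, and 231 and 369 for the control strain. Its log2 fold change was -0.80 ± 0.29 against 0 min and -0.86 ± 0.29 against the control (edgeR adjusted p = 0.173 and 0.0900). NMD3, the adaptor for export of the 60S subunit, had -0.75 ± 0.32 already at 15 min and -0.80 ± 0.32 at 30 min (edgeR adjusted p = 0.601 and 0.220). The GTPase genes NOG1 and NUG1 had -0.78 ± 0.29 and -0.76 ± 0.31 at 30 min against 0 min, and the rRNA methyltransferase gene NOP2 had -0.89 ± 0.28 (edgeR adjusted p = 0.175, 0.230 and 0.111). The helicase genes DRS1 and DBP3 were close to level, at -0.10 ± 0.28 and -0.04 ± 0.31. NOC2 was the one 60S factor with a positive value, 0.12 ± 0.44. SSF1 has a near-identical copy, SSF2, so its -0.36 rests on reads that the counting may have split.

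Between 15 and 30 min 1 member passed. RRB1 fell by 1.35 ± 0.27 log2 units (edgeR adjusted p = 0.0371), from 205 and 184 to 84.8 and 67.5 CPM, where 0.42% of all features fell and 0.0323% rose. At an unadjusted p under 0.05 there were 11 members, all lower, beside 658 of all 6191 features, 465 of them lower. The median was -0.46, against -0.04 for all features. Both 30 min libraries lay below both 15 min libraries in 29 members (22.2% of all features) and above them in none (18.7%). All 7 snoRNP proteins were among the 29. The count was 0 without either 15 min library, without 30 min replicate 2 or without control replicate 2, and 4, 6, 7 and 2 without 0 min replicate 1, 0 min replicate 2, 30 min replicate 1 and control replicate 1.

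The control strain after rapamycin had no called member against the untreated anchor-away strain. None of the 52 members passed by edgeR (0.0646% of all features fell and 0.0162% rose), DESeq2 or limma-voom. KRR1, at 11.6 and 49.7 against 11.3 and 6.05 CPM, was the 1 with an unadjusted p under 0.05. Of all 6191 features 110 had such a p, 87 of them lower. The median was -0.24, against -0.08 for all features, and 9 members had both control libraries below both 0 min libraries (19.4%). A negative fold change was found in 40 of the 52 members here too, against 55.4% of all features. The median was 0.040 without 0 min replicate 2. The 10 genes of 40S assembly were all negative here, with a median of -0.47, and the snoRNP proteins had a median of 0.16.

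Gene length, base composition and the spread within pairs moved with these values. Among all 5192 genes with a coding length, Spearman's rho between length and log2 fold change at 30 min was 0.30 against 0 min and 0.24 against the control. Among the 52 members it was 0.45 and 0.28. With GC content it was -0.24 and -0.40 in all genes and -0.48 and -0.47 in the members. These are descriptions across genes that share the same libraries. With genes split by length into 5 classes, the shortest class (78 to 693 bases) had medians of -0.50 and -0.50 in the 2 comparisons, and its 9 members had -1.21 and -1.17. In the longest class (2196 to 14733 bases) all genes had 0.16 and 0.28, and its 9 members had -0.24 and 0.14. The members' median was below that of all genes in each of the 5 classes in both comparisons. It was so in each class for the control against 0 min too. There the class medians were -0.37 to -0.11 for members and -0.12 to 0.0029 for all genes. Correcting each library for length and GC together gave 3 calls against 0 min, of which 2 (RPA135 and RRB1) were among the 5 above. Against the control it gave 4, of which 3 (RPA135, CBF5 and RRB1) were among the 8. The medians were -0.58 and -0.48. GAR1 and NOP1 stood at -0.047 and -0.22 against the control after this correction, and NHP2 at -0.50 against 0 min.

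**Figure D5:**
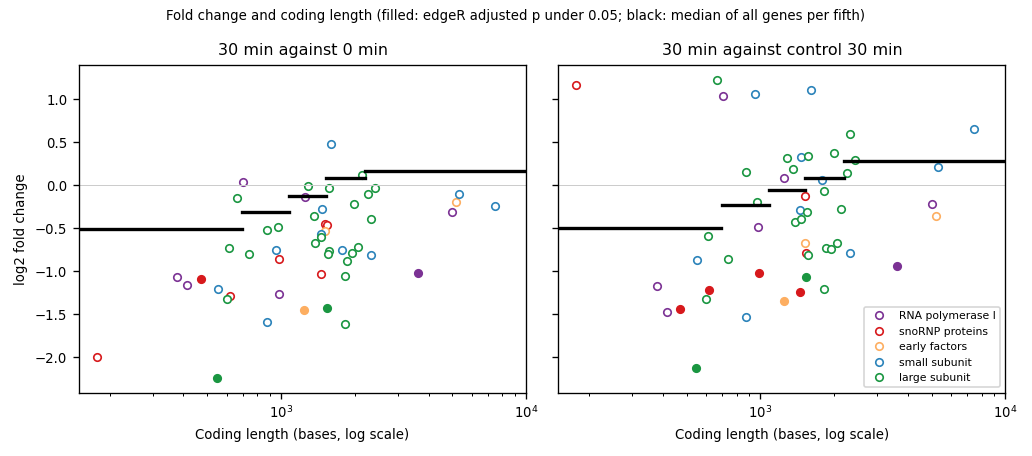
Log2 fold change (y axis) against coding length in bases (x axis, log scale) for the 52 members, coloured by role and filled where edgeR's test was passed. Black bars give the median of all genes in each of 5 length classes. The 9 shortest members have the lowest median, and the bars rise from -0.50 in the shortest class to 0.16 (left) and 0.28 (right) in the longest.

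Replicates of a group also disagreed in a way that the members followed. In the 0 min pair 41 of 52 members were higher in replicate 2, in the control pair 41 were higher in replicate 1, and the log2 ratio of the 0 min pair had a rho of -0.64 with GC over all genes. More than 2-fold differences within a pair occurred in 13 members in each of the 0 min, 30 min and control pairs and in 2 in the 15 min pair. Of the 5192 genes with a coding length, 13.5% differed as much at 0 min, 33.9% at 30 min, 28.8% for the control strain and 22.9% at 15 min. The members thus exceeded the share of these genes in the 0 min pair and not in the others. RLP7, a 60S factor, had 4.68 and 22.4 CPM in the 0 min pair and 20.1 and 1.90 CPM in the control pair. BFR2, BRX1, MAK5, NOP10, NOP15, NOP56, RPA34, UTP10 and UTP20 were likewise over 2-fold higher in replicate 2 at 0 min and in replicate 1 of the control. The part of length, GC and these differences in the members' fold changes was not tested beyond the corrections above.

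Other genes of the pathway, taken as 6 lists that hold 132 genes, were set beside the members. Of 131 tested, 5 fell at 30 min against 0 min and 8 against the control by edgeR, and none rose. These are 3.82% and 6.11%, beside 2.26% and 4.76% of all features and 2.65% and 5.55% of open reading frames. DESeq2 called 12 lower against 0 min, and 9 lower and 1 higher against the control. Without 30 min replicate 1 the counts were 14 and 13, and without 0 min replicate 1 the first was 1. In the list of 43 further 40S factors, SRP40 and EMG1 fell against 0 min. SRP40, a nucleolar phosphoprotein rather than a dedicated 40S factor, had -2.13 ± 0.30 (edgeR adjusted p = 0.00132). EMG1, an rRNA methyltransferase, stood at -1.47 ± 0.29 (edgeR adjusted p = 0.0108), and DBP8, a helicase, fell against the control in addition. In the list of 51 further 60S factors, SQT1 and NPA3 fell in both comparisons and BUD20 against the control. SQT1 is the chaperone of ribosomal protein Rpl10, and it fell by 1.27 ± 0.29 against 0 min (edgeR adjusted p = 0.0221). NPA3, listed there but by role a GTPase for assembly of RNA polymerases, fell by 1.49 ± 0.29 (edgeR adjusted p = 0.00973).

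Of 6 subunits shared between RNA polymerases, RPB8 fell, with a log2 fold change of -1.49 ± 0.31 against 0 min (edgeR adjusted p = 0.0127) and -1.62 ± 0.31 (edgeR adjusted p = 0.00432) against the control. All 6 were negative against 0 min, with a median of -1.01. Of 10 genes for initiation by RNA polymerase I, HMO1, an HMG-box protein on ribosomal DNA, fell against the control by 1.37 ± 0.26 (edgeR adjusted p = 0.00421), and the list's median was 0.06 against 0 min and 0.12 against the control. None of 10 RNA polymerase III genes passed by edgeR at 30 min (1 at an unadjusted p under 0.05 in each comparison, and 1 called by DESeq2 and by limma-voom against 0 min, 0 against the control), and their medians were -0.82 and -0.56. None of 11 transcription regulators of these genes passed in these 2 comparisons by any of the 3 tools or at an unadjusted p under 0.05, and their medians were 0.13 and 0.35. The median of the further 40S factors was -0.22 and that of the further 60S factors -0.29 against 0 min, beside -0.66 and -0.67 for the members of the same roles. The difference between members and other pathway genes was not tested. Members and lists were chosen with earlier results of these data known, so the gap cannot be told apart from that choice. PAC and RRPE stood together upstream of 36 of 43 further 40S factors, 38 of 51 further 60S factors, 7 of 10 RNA polymerase III genes and 2 of 10 initiation genes, and upstream of none of the 11 regulators.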

How the data were processed

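The deposited table holds raw read counts per annotated feature, unscaled by the authors. For its making, GSNAP 2012-01-11, HTSeq 0.5.3 and bedtools 2.17.0 are listed in the submitters' processing notes, along with build R64. Libraries were strand-specific and depleted of ribosomal RNA, per the labels' protocols. The protocols also record a fission yeast spike-in. With 0 spike-in features in the table used here, libraries were scaled by TMM, and fold changes are relative to the bulk of RNA. Of 7711 features, 29 exact repeats and 22 entries that shadow another feature were removed.

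The main test was the quasi-likelihood test of edgeR 4.0.16 under R 4.3.3 (filterByExpr, robust fit, 1 term per group, 8 libraries), 2-sided, with Benjamini-Hochberg adjustment over 6191 features. The common dispersion was 0.373 with 4 residual degrees of freedom, and totals of 4832948 to 17023022 counts per library limit low members. CPM use the TMM-scaled total. The script was checked on simulated data. DESeq2 1.42.0, limma 3.58.1, other scalings and filters, and left-out libraries were alternatives.

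The members, lists and named genes were chosen with earlier results of these data known. Full values went to members past a test and, in each role, to the most abundant per kb and the lowest p at 15 and 30 min. Members with a sign against their role's majority were named too, as were other pathway genes past a test. The 30 min library numbered 3 in its title is replicate 2 in its description, which was followed.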

Additional observations from a re-analysis of the deposited data

Results flagged for a closer look

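RRB1 differed between the 15 and 30 min effects. Both effects are set against the same 0 min libraries, so their difference is the comparison of 30 with 15 min, where RRB1 stood at -1.35 ± 0.27 on the log2 scale (edgeR adjusted p = 0.0371). Its call held in 10 of 23 alternatives.

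The intron of NOG2, a GTPase gene of 60S assembly, is counted on its own and was not among the members. It had 18 and 48 counts untreated, 17 and 22 after 15 min, 47 and 19 after 30 min, and 0 and 11 for the control strain. The mean level at 30 min was 3.85 CPM, against 0.616 CPM in the control, and both 30 min libraries lay above both control libraries. The log2 fold change against the control was 2.62 ± 2.37 and did not pass (edgeR adjusted p = 0.570). The intron holds the snoRNA gene snR191, and whether its reads come from unspliced RNA was not tested.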

How the results depend on the processing

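Counts of called members moved with most settings, and the medians at 30 min stayed below 0 in all of them. The counts below stand without the share of all features called in the same setting. With snoRNA scaling the median of all features also fell at 30 min against 0 min, as given in the next paragraph. At 30 min against 0 min the 5 members became 2 with RLE factors or open reading frames only, 1 with upper-quartile or total scaling, 0 scaled to mitochondrial features, 25 scaled to snoRNAs, 10 with no filter or limma-voom, 11 with DESeq2, and 3 without robust fitting or with a GC, length or joint correction. Against the control the 8 became 2 with upper-quartile or mitochondrial scaling or without the 3 libraries rich in zeros, 1 with total scaling, 16 with snoRNA scaling, 5 with open reading frames only, and 4 with a length or joint correction. Between 30 and 15 min the 1 became 7 with no filter, 5 with DESeq2, 4 with limma-voom, and 0 with RLE, total, mitochondrial or snoRNA scaling, without those 3 libraries, with open reading frames only and with each correction. At 15 min the 0 became 17 with snoRNA scaling and 1 with no filter, DESeq2 or limma-voom, and for the control against 0 min 1 with no filter. Leaving out 1 library gave 0 to 2 at 15 min, 2 to 7 at 30 min against 0 min, 3 to 10 against the control, 0 to 7 between 30 and 15 min, and 0 for the control against 0 min.

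With mitochondrial and snoRNA scaling, medians were -0.61 and -1.04 at 15 min, -1.11 and -1.42 at 30 min against 0 min, and -0.74 and -0.83 against the control, and snoRNA scaling gave -0.30 between 30 and 15 min. Total scaling gave -0.051 against the control and -0.10 between 30 and 15 min. Those scalings also moved the median of all features at 30 min against 0 min, to -0.49, -0.75 and 0.14. The members lay 0.49 to 0.79 below it in every setting. A scaling shifts all features of a library alike, so this gap could hardly change with scaling and is no check on it. Without single libraries the medians ran from -0.33 to 0.10, -0.90 to -0.45, -0.58 to -0.25, -0.67 to -0.36 and, for the control, -0.47 to 0.040. The sign turned only without 0 min replicate 2. Summed levels were 0.71, 0.46 and 0.38 times 0 min at 30 min with total, mitochondrial and snoRNA scaling, 0.84, 0.55 and 0.48 times the control, and 0.68 and 0.52 times 0 min at 15 min with the last 2.

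Of other pathway genes, the 5 against 0 min became 0, 40, 12 and 10 with mitochondrial scaling, snoRNA scaling, DESeq2 and limma-voom, 8 without the 3 libraries, 2 and 3 with length and joint correction, and 1 to 14 without a library. The 8 against the control became 4, 21 and 13 with mitochondrial scaling, snoRNA scaling and no filter, 5 and 4 with GC and joint correction, and 6 to 13 without a library. The 0 at 15 min became 31, 2, 1 and 1 with snoRNA scaling, no filter, DESeq2 and limma-voom, and 0 to 2 without a library. Between 30 and 15 min the 0 became 2, 8 and 2 with no filter, DESeq2 and limma-voom, 1 with the replicate block, and 0 to 5 without a library, and for the control 0 to 1. The cause of these shifts was not tested. Same-numbered replicates deviated with correlations of -0.37 to 0.09 over 5192 genes and of -0.77 to 0.40 over the members. Differences within pairs that follow GC enter these values, so they cannot settle whether the numbers pair replicates. The replicate block gave 5 and 7 members at 30 min. No called gene changed sign. Depth limits the low members most: NIP7 rested on 21 counts in 30 min replicate 2.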
